A study of Mus musculus with 3 samples.

Results

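The visual cycle and retinal pigment epithelium genes described here are 8 genes, Ptgds, Ttr, Rgr, Rpe65, Rlbp1, Lrat, Rdh5 and Best1, out of 30406 Ensembl IDs that the 3 gene lists share. They were named beforehand as a group, with the level of Ptgds in these libraries in view, and each was matched by Ensembl ID in all 3 matrices. Their levels and their co-occurrence are therefore a description. The study isolated nuclei from frozen whole corneas of 7-week-old mice, combining 5 animals in each library, and counted their RNA with droplet 3' chemistry. The library called WT came from untreated wild-type mice, the library called KO from untreated mice lacking Aire, and the library called KO_PBS from mice lacking Aire that received phosphate-buffered saline for 14 days. Aire drives the display of tissue antigens in the thymus, and its loss leads to autoimmune dry eye. The series text gives an age of 6 weeks and treatment day 7, which differs from the sample labels, and names an arm given lacripep that was not analysed here. Because each group is 1 library, no difference below was checked against replicates, and every interval covers counting error only.

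The visual cycle is the enzyme pathway that rebuilds the light-sensitive form of retinal after photoreceptors have used it. Most of its steps run in the retinal pigment epithelium, the pigmented cell layer behind the photoreceptors. Retinol reaches that layer bound to a carrier complex that includes transthyretin (Ttr), is stored as an ester by Lrat, is turned into the cis form by Rpe65, is held by the binding protein of Rlbp1 and is oxidised by Rdh5. Rgr encodes an opsin of the same cells that isomerises retinal in light, Best1 a chloride channel of their basal membrane, and Ptgds a secreted lipocalin that makes prostaglandin D2 and also binds retinoids. The cornea has no pigment epithelium. Ttr is also made by the ciliary and choroid plexus epithelia, Rlbp1 by Müller glia of the retina, and Ptgds by several ocular tissues.

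In build GRCm38 with the GENCODE M21 annotation, Ptgds (ENSMUSG00000015090) lies at chr2:25466709-25470046, Rpe65 (ENSMUSG00000028174) at chr3:159599175-159625321, Lrat (ENSMUSG00000028003) at chr3:82892579-82903973 and Rlbp1 (ENSMUSG00000039194) at chr7:79374870-79387048. Rdh5 (ENSMUSG00000025350) lies at chr10:128913593-128922888, Rgr (ENSMUSG00000021804) at chr14:37034909-37048964 and Best1 (ENSMUSG00000037418) at chr19:9985174-10001633. All 8 genes, with Ttr (ENSMUSG00000061808), are annotated as protein-coding. Exons of Rdh5 overlap exons of Bloc1s1 on the same strand, so the count of Rdh5 can depend on how reads there were treated. Lrat overlaps the antisense gene Rbm46os outside its exons. Both partners are in all 3 gene lists.

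The windows from 250 bases before to 50 bases after the annotated start (RefSeq, GRCm38.p6) are printed for 5 of the genes, because members that move together may share promoter letters. RefSeq windows were matched for 7 of the 8 genes. Capitals mark matches, on either strand, to TAATCC (the core bound by OTX2 and CRX), CATGTG (the core of the M-box bound by MITF) or TATAAA.
Ptgds, chr2:25469700-25469999, minus strand: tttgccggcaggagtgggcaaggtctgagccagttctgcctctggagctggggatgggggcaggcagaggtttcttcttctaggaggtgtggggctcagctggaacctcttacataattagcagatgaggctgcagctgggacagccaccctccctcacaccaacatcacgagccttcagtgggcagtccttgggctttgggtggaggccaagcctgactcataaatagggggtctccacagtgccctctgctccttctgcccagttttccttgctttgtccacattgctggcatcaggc
Rpe65, chr3:159598931-159599230, plus strand: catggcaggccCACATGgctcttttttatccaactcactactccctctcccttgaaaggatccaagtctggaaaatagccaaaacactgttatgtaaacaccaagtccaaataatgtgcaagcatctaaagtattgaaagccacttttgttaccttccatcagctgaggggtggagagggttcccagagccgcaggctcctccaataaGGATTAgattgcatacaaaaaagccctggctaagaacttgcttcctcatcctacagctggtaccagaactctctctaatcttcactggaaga
Rgr, chr14:37048965-37049264, minus strand: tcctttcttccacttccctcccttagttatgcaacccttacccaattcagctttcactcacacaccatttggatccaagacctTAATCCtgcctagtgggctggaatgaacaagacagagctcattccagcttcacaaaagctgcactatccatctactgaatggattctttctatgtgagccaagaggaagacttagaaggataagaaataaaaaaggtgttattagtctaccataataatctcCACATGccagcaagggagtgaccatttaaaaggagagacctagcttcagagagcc
Rlbp1, chr7:79386978-79387277, minus strand: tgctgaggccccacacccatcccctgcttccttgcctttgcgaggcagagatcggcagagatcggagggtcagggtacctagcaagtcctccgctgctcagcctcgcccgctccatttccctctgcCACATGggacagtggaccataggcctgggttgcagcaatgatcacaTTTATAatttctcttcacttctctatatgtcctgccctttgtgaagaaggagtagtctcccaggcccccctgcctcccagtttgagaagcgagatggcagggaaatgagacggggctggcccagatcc
Best1, chr19:10001584-10001883, minus strand: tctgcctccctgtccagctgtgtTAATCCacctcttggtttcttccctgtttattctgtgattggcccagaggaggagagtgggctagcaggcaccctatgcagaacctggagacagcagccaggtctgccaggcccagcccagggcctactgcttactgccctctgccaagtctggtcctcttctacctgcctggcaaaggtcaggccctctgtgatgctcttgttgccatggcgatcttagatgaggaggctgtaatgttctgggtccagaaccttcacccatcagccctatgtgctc
TAATCC was found in 3 of the 7 windows, those of Rpe65, Rgr and Best1, against 7.06% of 32851 promoter windows of the same length. CATGTG was found in 3 of 7, those of Rpe65, Rgr and Rlbp1, against 14.2% of all windows. TATAAA was found in the window of Rlbp1 alone, against 13.6%. CACGTG and ATTGTT, searched in the same way, were found in none of the 7 windows and in 7.15% and 10.7% of all windows. The windows of Ptgds, Lrat and Rdh5 held none of the 5 motifs. In the Rpe65 window the TAATCC match, which reads GGATTA on the printed strand, began 42 bases before the start.

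Over the shared genes the libraries held 255925024 UMIs in 96587 barcodes (WT), 351335206 in 107031 (KO) and 177818671 in 114357 (KO_PBS), with medians of 2253, 2970 and 1422 UMIs per barcode. Libraries shared 2833 (KO and WT), 3379 (KO_PBS and KO) and 2998 (KO_PBS and WT) barcode sequences, and 84 were in all 3. Aire was near the floor, at 0.0586 CPM in WT, 0.0768 in KO and 0.382 in KO_PBS (15, 27 and 68 UMIs), so it did not check the labels, and directions are between libraries as labelled. CPM is the number of UMIs of a gene for each 1000000 UMIs of the shared genes in a library. KO_PBS stood apart in that the Y-linked gene Ddx3y was at 5.97 CPM, against 0.211 in WT and in KO. The X-linked gene Xist was at 269 CPM in WT, 352 in KO and 476 in KO_PBS. Whether the sexes of the combined animals differ between libraries was not tested, and it cannot be told apart from the other differences of KO_PBS. The corneal label was met in all 3: Krt12, the keratin of corneal epithelium, was at 26121 CPM in WT, at 13793 in KO and at 6205 in KO_PBS. Genes of tissues behind the cornea were present too, with 10 lens genes summing to 554, 217 and 8282 CPM and 11 photoreceptor genes to 186, 64.7 and 1608 CPM in the same order. No gene of either list was at 0 in any library.

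All 8 genes had their highest level in KO_PBS and their lowest in KO. Ptgds was at 540 CPM in WT (95% Poisson interval 537 to 542), 133 in KO (132 to 134) and 4145 in KO_PBS (4135 to 4154). The 3 intervals do not overlap, and Ptgds alone made up 737008 UMIs of KO_PBS. Ttr was at 246 CPM in KO_PBS, 54.5 in WT and 19.7 in KO. Among the genes that hold or convert retinoids, Rpe65 was at 3.05 CPM in WT (2.84 to 3.27), 1.05 in KO (0.949 to 1.17) and 32.2 in KO_PBS (31.3 to 33.0), from 781, 370 and 5718 UMIs. Lrat, which supplies the ester that Rpe65 uses, was at 0.910 CPM in WT (0.797 to 1.03), 0.643 in KO (0.562 to 0.733) and 10.0 in KO_PBS (9.58 to 10.5). The intervals of WT and KO are apart for Lrat, by a narrower margin than for Rpe65. Rlbp1 was at 3.49 CPM in WT, 1.25 in KO and 46.3 in KO_PBS. Rdh5 was at 11.1, 5.07 and 50.9 CPM in that order, and its exon partner Bloc1s1 at 25.8, 20.6 and 65.6. The opsin gene Rgr was at 7.81 CPM in WT, 1.70 in KO and 36.6 in KO_PBS. Best1 had few UMIs, 130 for WT, 169 for KO and 189 for KO_PBS, or 0.508 CPM (0.424 to 0.603), 0.481 (0.411 to 0.559) and 1.06 (0.917 to 1.23). Its intervals overlapped between WT and KO. These are sums over a library, where fewer cells of a type and less RNA per cell cannot be told apart.

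**Figure D1:**
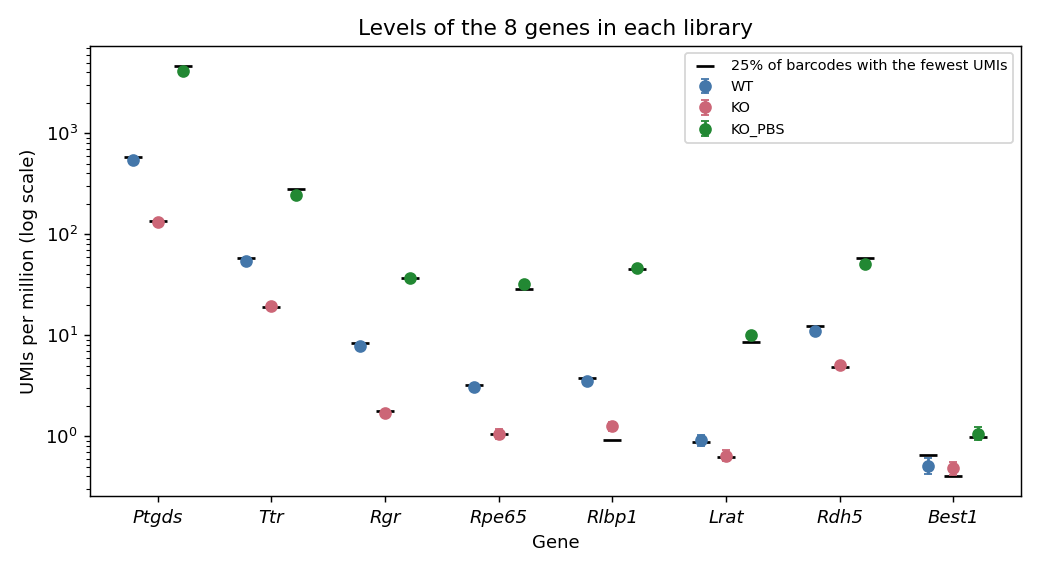
Level of each of the 8 genes in each library, in CPM on a log axis. Points are sums over all barcodes with 95% Poisson intervals, 1 library per group, and black dashes are the level in the 25% of barcodes with the fewest UMIs. KO_PBS is the highest library for every gene, with Ptgds at 4145 CPM against 540 in WT and 133 in KO.

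The question of the first comparison was how the untreated knockout cornea differs from wild type. Genes were called higher or lower by size and without a test, on 3 conditions: 50 or more UMIs in the pair of libraries, a CPM ratio of 2 or more, and separate Poisson intervals. Of the 8 genes, 6 were lower in KO and 0 were higher, while 8.63% of the 20252 genes with enough UMIs were lower and 20.6% higher. After centring on the median gene 6 were lower, where 12.9% of all genes were. Rgr had the largest difference, with a log2 ratio of -2.20 (-2.34 to -2.07), followed by Ptgds at -2.02 (-2.04 to -2.01). Rpe65 was at -1.53, Rlbp1 at -1.48, Ttr at -1.47 and Rdh5 at -1.13. Lrat, at -0.50 (-0.77 to -0.23), and Best1, at -0.08 (-0.42 to 0.26), did not pass the rule. The median of the 8 was -1.48, beside 0.24 for all genes.

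The question of the next comparison was what differs after saline in mice lacking Aire. The gene list of KO_PBS differs from that of the other libraries, so a difference in annotation cannot be told apart from a difference between the corneas here. All 8 genes were higher in KO_PBS than in KO, where 39.9% of 22416 genes were higher and 4.70% lower. Rlbp1 had the largest log2 ratio, 5.21 (5.07 to 5.35), or 37.1-fold. Ptgds was at 4.96 (4.95 to 4.98), or 31.2-fold, and Rpe65 at 4.93 (4.78 to 5.09), or 30.5-fold. Rgr was at 4.43, Lrat at 3.96, Ttr at 3.64 and Rdh5 at 3.33. Best1 was lowest at 1.14 (0.84 to 1.45), and 0.51 once the shift of the median gene, 0.63, was taken off, where it no longer passed. The other 7 genes still passed after that centring, as did 29.9% of all genes in the higher direction. The median of the 8 was 4.20. By size of the ratio Rlbp1 ranked 1030 and Ptgds 1361 among the 22416 genes.

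Against WT, KO_PBS was also higher for 8 of 8 genes, where 57.0% of 22138 genes were higher, 4.06% were lower and the median gene was shifted by 1.27. Rlbp1 was at 3.73, Lrat at 3.46, Rpe65 at 3.40 and Ptgds at 2.94 on the log2 scale. Rgr was at 2.23, Rdh5 at 2.20, Ttr at 2.17 and Best1 at 1.07. After centring on the median gene the number passing was 4 (29.6% of all genes), namely Rlbp1, Lrat, Rpe65 and Ptgds, and Best1 turned to -0.20. The 3 comparisons share libraries, so their directions are not independent of each other.

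**Figure D2:**
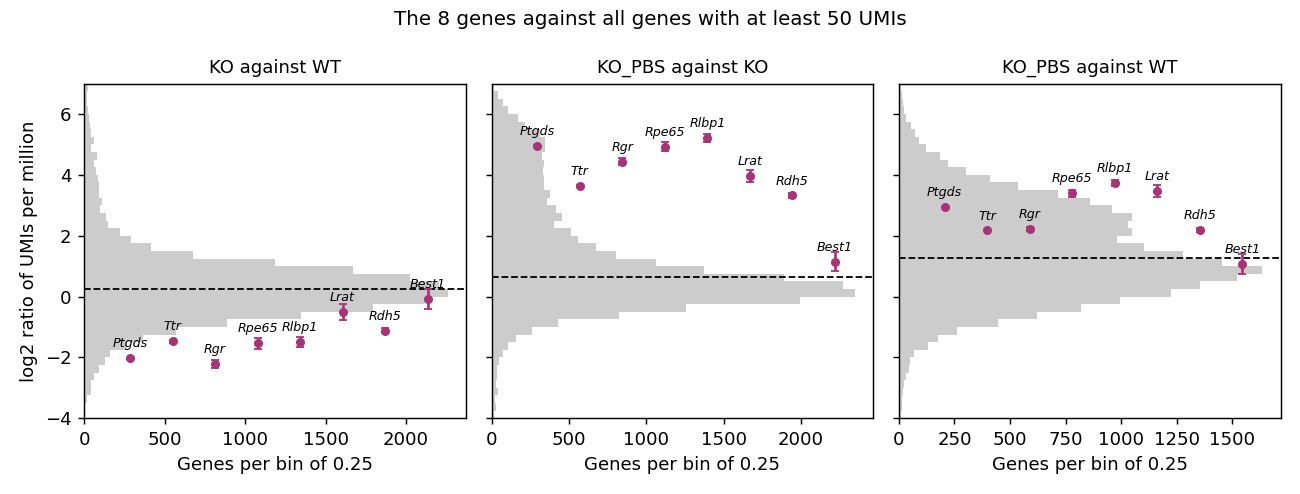
log2 ratio of CPM for the 8 genes (purple points with 95% intervals) over the number of all genes with at least 50 UMIs in each bin (grey). The dashed line is the median gene. The 8 genes lie below it for KO against WT and above it for KO_PBS against KO, and 7 of 8 lie above it for KO_PBS against WT, Best1 being the exception.

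Photoreceptor, lens, melanin pigment and ciliary epithelium genes mostly moved with these levels, while choroid plexus and Müller glia genes did so in part, and their part in the differences was not tested. The list counts that follow stand beside 8.63% of all genes lower and 20.6% higher in KO against WT, and 39.9% higher and 4.70% lower in KO_PBS against KO. The photoreceptor list (Sag, Gnat1, Pdc and others) had 10 of 11 genes lower in KO than in WT and 11 of 11 higher in KO_PBS than in KO, with medians of -1.60 and 5.28. Gnat1, the rod transducin, was at 16.2 CPM in WT, 6.09 in KO and 366 in KO_PBS, and the values that follow keep this order. For the lens list the numbers were 7 of 10 lower and 10 of 10 higher, with medians of -1.44 and 5.04. Among 10 melanin pigment genes, 8 were lower in KO than in WT and 10 higher in KO_PBS than in KO. Pmel, which forms the fibrils of pigment granules, was at 81.0, 20.2 and 1192 CPM. Ciliary epithelium genes had 3 of 5 lower and 5 of 5 higher, and Optc, which encodes opticin, was at 3.06, 0.444 and 47.4 CPM. Choroid plexus genes, which mark another source of Ttr, had 2 lower and 1 higher in KO among the 5 with enough UMIs, and 5 of 6 higher in KO_PBS than in KO. Their summed level was 67.6, 26.9 and 265 CPM, and 57.4, 17.2 and 133 CPM of it was Folr1, a folate receptor. Prlr, the prolactin receptor, went the other way in the first comparison, at 1.28, 3.58 and 4.25 CPM. Of 6 genes marking Müller glia, which also make Rlbp1, 3 were higher and 0 lower in KO than in WT, and 4 were higher in KO_PBS than in KO. After centring on the median gene the last number was 2 of 6, beside 29.9% of all genes. The median Müller glia gene had a log2 ratio of 0.87 in KO against WT, opposite in sign to the median of the 8 genes. Slc1a3, a glutamate transporter, was at 6.83, 18.3 and 33.2 CPM, and Glul, glutamine synthetase, at 243, 302 and 574. The water channel gene Aqp4 was at 0.570, 0.364 and 5.72 CPM.

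Keratocyte and corneal epithelium genes did not follow the same order as a group. Keratocyte genes, which mark the stromal cells that can also express Ptgds, had 7 of 8 higher in KO than in WT and 5 of 8 lower in KO_PBS than in KO. Kera, encoding the stromal proteoglycan keratocan, was at 48.4, 156 and 32.9 CPM, the reverse of Ptgds in both steps. Corneal epithelium genes had 3 of 6 lower in KO_PBS than in KO and 0 higher. Corneal endothelium genes had 2 of 6 higher and 2 lower in KO than in WT, and 5 of 6 higher in KO_PBS than in KO. One of them, Car3, a carbonic anhydrase, had the order of the 8 genes, at 205, 73.8 and 424 CPM, and Alcam, an adhesion molecule, was at 164, 407 and 242. Neural crest melanocyte genes were divided, with Sox10 at 2.05, 2.07 and 14.6 CPM and the receptor gene Mc1r at 32.2, 19.7 and 3.08 CPM.

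**Figure D3:**
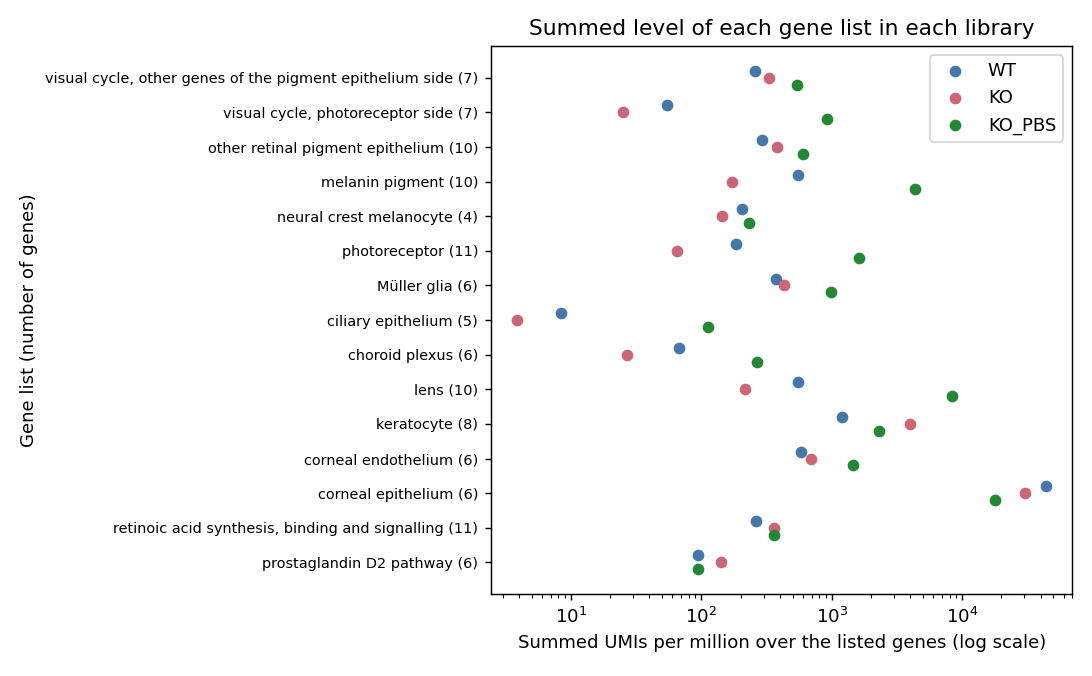
Summed CPM of each gene list in each library, on a log axis, with the number of genes in brackets. Photoreceptor, lens, melanin pigment and ciliary epithelium lists have the order of the 8 genes, lowest in KO and highest in KO_PBS, whereas the keratocyte list is highest in KO at 3946 CPM and the corneal epithelium list highest in WT at 43973 CPM.

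The rest of the visual cycle was read from lists of its other genes. On the pigment epithelium side (Stra6, Rbp4, Rrh and others), 1 of 7 genes was lower in KO than in WT and 4 of 7 were higher in KO_PBS than in KO, or 3 of 7 after centring. With 7 genes these are near the shares of all genes, 8.63% lower, 39.9% higher and, after centring, 29.9% higher. Rbp4, the plasma retinol carrier that binds transthyretin, was at 0.781, 0.364 and 3.18 CPM, and Rrh, an opsin of the pigment epithelium, at 0.821, 0.490 and 4.16. On the photoreceptor side (Abca4, Rdh12, Opn1sw and others), 4 of 7 genes were lower in KO than in WT and 7 of 7 higher in KO_PBS than in KO. Opn1sw, the short-wave cone opsin, was at 0.969, 0.171 and 8.91 CPM, and Abca4, the retinoid flippase of the outer segment, at 5.24, 3.03 and 66.8. Other pigment epithelium genes were divided in KO against WT, with 3 of 10 higher and 4 lower, and 7 of 10 were higher in KO_PBS than in KO. Cldn19, the tight junction claudin of that layer, was at 0.527, 0.191 and 6.83 CPM, while the channel gene Trpm3 was at 254, 324 and 346 CPM and passed neither.

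Downstream of retinol, KO had 2 of 11 genes of retinoic acid synthesis, binding and signalling higher than WT and 0 lower. In KO_PBS against KO, 3 of 11 were higher and 1 lower. The shares of higher genes are near or below those of all genes, 20.6% and 39.9%. Crabp1, a retinoic acid-binding protein, was at 1.36, 7.39 and 2.46 CPM, and Rarb, a retinoic acid receptor, at 7.66, 7.41 and 41.9. Of the other prostaglandin D2 genes, 3 of the 4 with enough UMIs were higher in KO than in WT. Against KO, KO_PBS had 1 higher and 1 lower of the 5 with enough UMIs. Ptgs2, the inducible enzyme that feeds prostaglandin synthases, was at 1.20, 27.6 and 12.7 CPM, and Hpgds, the other prostaglandin D synthase, at 67.8, 49.2 and 42.1.

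How the 8 genes were spread over barcodes was examined next, since RNA free in the droplets gives UMIs in nuclei that do not express a gene. In the 25% of barcodes with the fewest UMIs, called low-UMI barcodes, Ptgds was at 581 CPM in WT, 136 in KO and 4589 in KO_PBS. For the 8 genes the level there was between 0.954 and 1.28 times that over all barcodes in WT, 0.743 and 1.04 times in KO, and 0.846 and 1.15 times in KO_PBS. Most of the library differences above were thus present in these barcodes as well. Their median depth differed, at 969 UMIs for KO_PBS, 1565 for WT and 1994 for KO. The KO value was above the median of all KO_PBS barcodes, 1422 UMIs. The called-barcode filter given below kept 25953 of 26757 low-UMI barcodes of KO, 22892 of 28589 of KO_PBS and 0 of 24146 of WT. Low-UMI barcodes are thus not a like class across libraries, and whether their UMIs came from free RNA was not tested. Best1 in KO_PBS against WT had a log2 ratio of 0.59 in low-UMI barcodes against 1.07 over all barcodes, and its intervals overlapped there. Lrat in KO against WT kept its log2 ratio, -0.49 there and -0.50 over all barcodes. With 32 UMIs of Lrat in the low-UMI barcodes of each of these libraries, its intervals overlapped. Of the WT barcodes 60.7% held a UMI of Ptgds, of the KO barcodes 28.6% and of the KO_PBS barcodes 99.3%. Rpe65 was found in 0.735% (710 barcodes), 0.328% (351) and 4.37% (4998). After each barcode was thinned to 1000 UMIs, with 265, 226 and 16860 shallower barcodes left out, the shares were 35.6%, 11.1% and 98.0% for Ptgds and 0.302%, 0.108% and 2.96% for Rpe65. Keratocytes should lack the visual cycle genes, so barcodes with at least 4 of the 8 keratocyte genes were taken. These were 12163 of 96587 in WT and 16757 of 114357 in KO_PBS. The keratocyte list was at 1084 CPM in low-UMI barcodes of WT and 2253 in those of KO_PBS, near its 1190 and 2294 over all barcodes. Whether the barcodes taken hold keratocyte nuclei was not tested, so they cannot serve as a class known to lack these genes. In KO the same cut took 81431 of 107031 barcodes, most of the library, and its values are not used. A UMI of Rpe65 was found in 1.30% of these barcodes of WT and 5.64% of those of KO_PBS, at median depths of 3060 and 1802 UMIs. The shares over all barcodes lie below these, but so do the library median depths, 2253 and 1422 UMIs, and a deeper barcode meets a UMI more often. A single UMI of Rpe65 was not taken as a sign of expression, and whether it came from free RNA was not tested. At matched depth the UMIs of Rpe65 in the barcodes with keratocyte genes were 1.32 times the expected number in WT (1.13 to 1.53) and 0.984 times in KO_PBS (0.928 to 1.04). Those of Ptgds were 1.09 times the expected number in WT (1.08 to 1.11) and 1.00 times in KO_PBS (0.999 to 1.01).

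Co-occurrence was measured as the number of barcodes with a UMI of both genes over the number expected if the genes were independent among barcodes of like depth, in 10 bins of total UMIs. In WT, Ptgds and Rpe65 were both found in 546 barcodes, 1.20 times the 457 expected (1.10 to 1.30). Ptgds and Rgr met in 1278 barcodes, 1.13 times the expected number (1.07 to 1.20), and Ptgds and Ttr in 6990, 1.14 times (1.11 to 1.17). In KO the ratios were higher, 1.72 for Rpe65 from 191 barcodes (1.49 to 1.99), 1.75 for Rgr from 300 (1.56 to 1.97) and 1.46 for Ttr from 2283 (1.40 to 1.52). In KO_PBS they were 0.999 for Rpe65 (0.971 to 1.03), 1.00 for Rgr (0.974 to 1.03) and 1.00 for Ttr (0.990 to 1.01). With Ptgds in 99.3% of KO_PBS barcodes, the highest ratio the numbers allow there was 1.00 for Rpe65 and Rgr and 1.01 for Ttr, so co-occurrence could not be seen by presence in that library. The highest possible ratios were 1.55 to 1.58 in WT and 3.17 to 3.23 in KO, so the 3 libraries are not on 1 scale.

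The UMIs of Ptgds in barcodes with a partner do not have this ceiling. Ranks below are among genes with at least 20 UMIs expected in those barcodes, so genes of low level are left out of them. In WT barcodes with Rpe65, Ptgds had 3546 UMIs, 2.69 times those expected from other barcodes of like depth (2.61 to 2.79), and it ranked 6 among 8755 genes. In KO barcodes with Rpe65 it had 873 UMIs, 5.02 times the expected number (4.69 to 5.36), and ranked 2 among 7830. Barcodes with Rgr gave 2.31 times in WT (rank 10 of 11244) and 4.75 times in KO (rank 3 of 9308), and barcodes with Ttr 1.75 and 2.72 times (ranks 37 of 14990 and 6 of 14504). In KO_PBS the same ratios were 1.03 for Rpe65 (1.02 to 1.04), 1.03 for Rgr (1.02 to 1.04) and 1.03 for Ttr (1.02 to 1.03), with ranks of 5162 of 15219, 5169 of 15608 and 5002 of 20476. Of the genes ranked, Ptgds was thus among the 37 most enriched beside each of these partners in WT and KO, and its best rank in KO_PBS was 5002.

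Pairs without Ptgds have a higher ceiling, since no other member was in most barcodes of a library. Rgr and Rpe65 were both found in 78 barcodes of WT, 5.22 times the expected number, in 28 of KO, 13.9 times, and in 470 of KO_PBS, 1.66 times. Lrat and Rpe65, consecutive enzymes of the cycle, met in 12, 8 and 197 barcodes, at 5.66, 9.92 and 2.39 times. Over the 28 pairs the median ratio was 3.34 in KO, 2.28 in WT and 1.08 in KO_PBS. The interval lay above 1 for 20 pairs in WT, 21 in KO and 15 in KO_PBS, and below 1 for 0 pairs in each. The 28 pairs include those with Ptgds, whose highest possible ratio in KO_PBS was 1.00 to 1.01. None of these could have an interval above 1 there, so medians and numbers of pairs are not like for like between libraries. The 15 pairs of KO_PBS were those without Ptgds or Best1, and the same 15 had intervals above 1 in WT and KO. Best1 gave few joint barcodes, at most 2 with Rgr, Rpe65, Rlbp1 or Lrat in WT and KO, so its pairs say little.

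**Figure D4:**
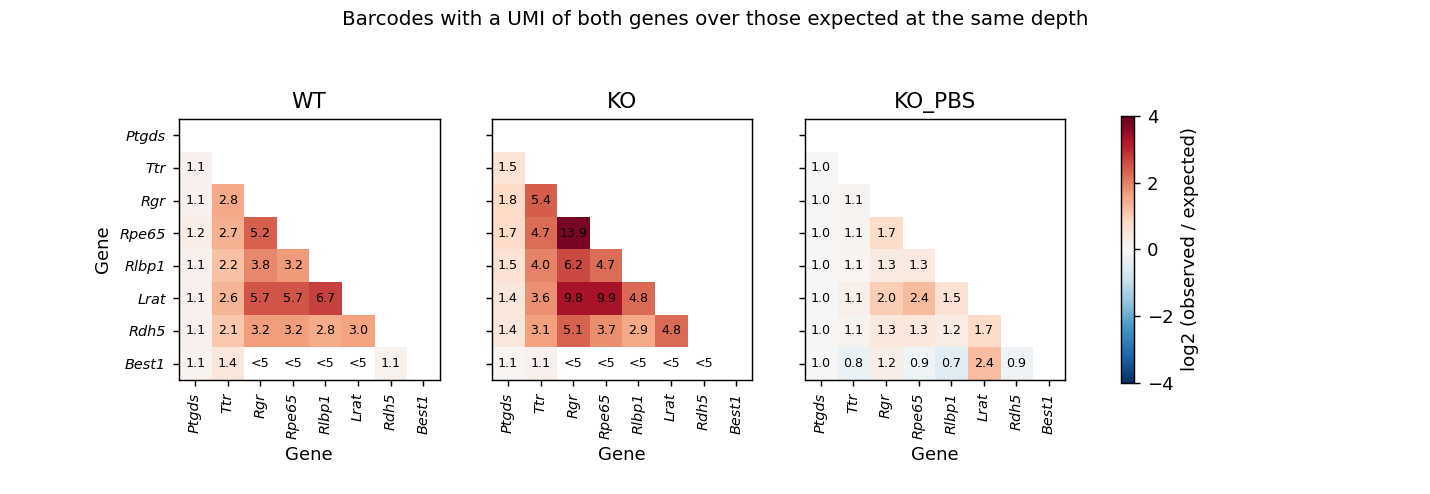
Barcodes with a UMI of both genes over the number expected at the same depth, for each of the 28 pairs in each library; numbers in the squares are ratios and colours their log2, and pairs with fewer than 5 joint barcodes are not coloured. Pairs among Rgr, Rpe65, Rlbp1, Lrat and Rdh5 are above 2 in WT and KO, and pairs with Ptgds are near 1 in KO_PBS.

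The level of Ptgds was then set against how many of the other 7 members had a UMI in the same barcode. In barcodes with 0 of them, 85.3% of WT, 92.7% of KO and 55.1% of KO_PBS, Ptgds was at 489 CPM in WT (486 to 492), 120 in KO (119 to 121) and 4155 in KO_PBS (4141 to 4168). With 1 of them it was at 649, 204 and 4135 CPM, with 2 at 1045, 739 and 4088, and with 3 at 2403, 1926 and 4186. In barcodes with at least 4, 59 in WT, 19 in KO and 263 in KO_PBS, it was at 6502 CPM in WT (6233 to 6781), 3591 in KO (3214 to 3999) and 4882 in KO_PBS (4728 to 5041). The level climbed with the number of members in WT and KO, and in KO_PBS it stayed between 4088 and 4186 CPM up to 3 members. Barcodes with more members were deeper, in KO_PBS with a median of 1343 UMIs at 0 members and 2387 at 4 or more. Against barcodes of like depth, Ptgds in KO_PBS was at 0.987, 1.01, 1.03, 1.10 and 1.34 times the expected level with 0, 1, 2, 3 and at least 4 members, so it climbed there too. The same ratios went from 0.901 to 13.0 in WT and from 0.903 to 27.6 in KO. The ratio of KO_PBS to KO was 34.6-fold in barcodes with 0 other members and 1.36-fold in those with at least 4. The class is not the same kind of barcode in each library, since 7 of the 8 members were at least 10.0-fold higher in KO_PBS than in KO over all barcodes and so meet more often by their level alone. The folds by class are therefore not like for like. Against WT, KO_PBS was 8.50-fold higher with 0 and 1.33-fold lower with at least 4. The barcodes with 0 other members held 74.5% of the Ptgds UMIs of WT, 82.9% of those of KO and 51.6% of those of KO_PBS.

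**Figure D5:**
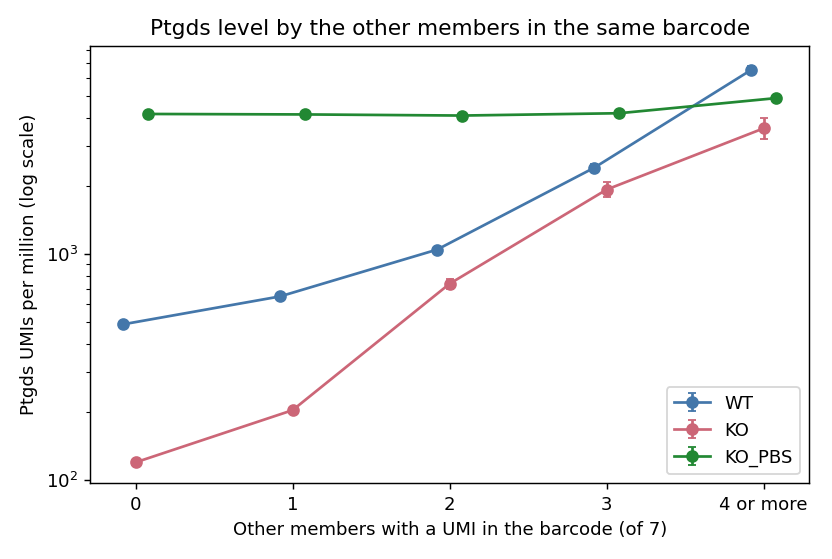
Ptgds CPM (log axis) in barcodes grouped by how many of the other 7 genes had a UMI, with 95% Poisson intervals, 1 line per library. The libraries lie between 120 and 4155 CPM at 0 other genes and between 3591 and 6502 CPM at 4 or more.

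In the barcodes with at least 4 other members, genes outside the 8 were read as well, since they were not used to choose the barcodes. Set against barcodes of like depth, the other pigment epithelium list was at 2.19 times in WT (1.91 to 2.49), 2.12 times in KO (1.66 to 2.66) and 4.31 times in KO_PBS (4.16 to 4.47). Over all barcodes this list summed to 291, 383 and 604 CPM, of which Trpm3 made up 254, 324 and 346. Trpm3 thus held most UMIs of the list over all barcodes, by a share that differs between libraries. Which genes of the list made its excess in the chosen barcodes was not computed. The melanin pigment list was at 3.47, 5.09 and 1.20 times, and the neural crest melanocyte list at 0.856 (0.652 to 1.10), 1.07 (0.587 to 1.80) and 0.854 times (0.730 to 0.992). The photoreceptor list was enriched as well, at 4.48 times in WT (3.94 to 5.07), 50.4 times in KO (44.7 to 56.6) and 1.19 times in KO_PBS (1.13 to 1.25). In KO that rests on 281 UMIs in 19 barcodes. Best1 had 0 UMIs in these barcodes of WT and of KO, where fewer than 1 would be expected at their depth. The corneal epithelium list was at 0.903 (0.888 to 0.918), 0.937 (0.902 to 0.974) and 0.768 times (0.753 to 0.784). These barcodes thus also held corneal RNA, below the level of others and most so in KO_PBS. Whether they hold 1 nucleus or several was not tested, and no doublet caller was run.

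A wider set, called carrier barcodes, held a UMI of at least 2 of Rpe65, Rgr, Rlbp1, Lrat, Rdh5 and Best1. There were 399 in WT (0.413%), 137 in KO (0.128%) and 2959 in KO_PBS (2.59%). If the 6 genes were independent at a given depth, 172, 43.5 and 2728 would be expected, so the excess was 2.32, 3.15 and 1.08 times. Their median depth was 3097, 3944 and 1794 UMIs, against 2252, 2969 and 1414 in the remaining barcodes. Ptgds and Ttr did not enter this choice. Ttr was at 1012 CPM in carriers of WT and 47.4 in the rest, at 1066 and 17.8 in KO, and at 426 and 239 in KO_PBS. Ptgds was at 2606 CPM in carriers and 524 in the rest of WT, 1678 against 130 for KO, and 4235 against 4141 for KO_PBS. With the carriers left out, the log2 ratios of the 8 genes for KO_PBS against KO were between 0.87 and 5.05, with Ptgds at 4.99 and Rpe65 at 4.67. The lowest was Best1, which at 1.83-fold against KO and 1.80-fold against WT no longer reached a ratio of 2. The other 7 of the 8 genes did so in KO_PBS against KO and against WT. The share of all genes without carriers was not computed, and over all barcodes 39.9% and 57.0% passed as higher. The carriers held only 3.55% of the Ptgds UMIs of WT, 2.28% of those of KO and 3.62% of those of KO_PBS, so leaving them out could not move its ratio far.

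Genes outside the group were ranked by their enrichment in carrier barcodes, taking the lowest of the 3 libraries, among 4616 genes with at least 20 UMIs in the carriers of each. The first was Itgb8, an integrin subunit, at 4.12 times in WT, 6.29 in KO and 3.82 in KO_PBS. Slc16a8, the lactate transporter of the pigment epithelium, was at 15.0, 34.9 and 3.25 times. Rdh10, a retinol dehydrogenase of the same pathway, was at 2.61, 1.86 and 1.98 times. Trf, which encodes transferrin, was at 13.4, 11.4 and 1.74 times, Slc4a5, a bicarbonate cotransporter, at 4.67, 11.1 and 1.79, and Enpp2, the enzyme autotaxin, at 6.98, 4.22 and 1.71. The remaining genes of the first 10 were Tbc1d1, Iqgap2, Arl6ip1 and Pip5k1b, whose lowest ratios were between 1.42 and 1.84. The median gene had a lowest ratio of 0.930. Of the gene lists, other pigment epithelium genes, where Trpm3 held most UMIs of each library, were at 1.57 times in carriers of WT, 1.22 in KO and 1.92 in KO_PBS. Photoreceptor genes were at 1.69, 8.09 and 1.02 times and the photoreceptor side of the visual cycle at 1.96, 12.1 and 1.09 times. In WT and KO both exceeded the other pigment epithelium list. So did melanin pigment genes (2.18, 2.90 and 1.11 times) and choroid plexus genes (1.71, 3.29 and 1.45 times). In KO the 19 barcodes with at least 4 other members held 281 of the 311 photoreceptor UMIs of carriers. They also held 173 of the 186 UMIs of the photoreceptor side, so both KO values rest mostly on those barcodes. By the lowest of the 3 libraries Ttr was at 1.99, with 2 of the 4616 genes above it, and Ptgds at 1.10, with 110 above it.

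Barcodes rich in Ptgds were also taken on their own, a choice made after the data were seen. They had at least 10 UMIs of Ptgds and at least 5 times its share in their library. WT had 905 such barcodes, KO 199 and KO_PBS 37, with 13.9%, 7.22% and 0.423% of the Ptgds UMIs. The cut follows the level of Ptgds in each library and is highest in KO_PBS, so these numbers are not on 1 scale. Of them 176 in WT (19.4%), 73 in KO (36.7%) and 10 in KO_PBS (27.0%) held at least 2 of the other 7 members. At their depth that was 10.3 times the expected number in WT (8.81 to 11.9), 48.2 times in KO (37.8 to 60.6) and 1.78 times in KO_PBS (0.854 to 3.27). None of the other 7 members had a UMI in 57.7% of them in WT, 46.7% in KO and 35.1% in KO_PBS. Genes with at least 20 UMIs in these barcodes were ranked, 9214 in WT, 6296 in KO and only 891 in KO_PBS, without mitochondrial and ribosomal genes. Of these genes Ttr was the most enriched in WT, at 18.3 times from 2225 UMIs, and in KO, at 52.5 times from 795 UMIs. In KO_PBS it ranked 5, at 6.24 times (5.29 to 7.30) from 154 UMIs. Rpe65 was at 5.43 times (3.44 to 8.15) and Rgr at 5.08 times (3.22 to 7.62) in the same barcodes of KO_PBS, each from 23 UMIs. These UMIs lay in 13 barcodes for Ttr, 4 for Rpe65 and 6 for Rgr. By number of barcodes the ratios were 0.931, 1.66 and 2.19, with intervals that include 1. UMIs of 1 barcode are not independent, which the intervals on UMIs do not take in. At least 4 of the other members were found in 3 of those 37 barcodes, 9.86 times the expected number (2.03 to 28.8). Zic1, a transcription factor gene of the ciliary epithelium list, was at 8.37 times there. The whole ciliary epithelium list was at 5.00 times in WT (4.10 to 6.04), 4.98 in KO (2.90 to 7.97) and 6.18 in KO_PBS (4.98 to 7.59), and the melanin pigment list at 5.62, 4.10 and 2.17 times. The other pigment epithelium list, where Trpm3 held most UMIs of each library, was at 1.53, 1.34 and 2.19 times in these barcodes. The choroid plexus list was enriched in them as well, at 2.50 times in WT (2.27 to 2.74), 4.71 in KO (3.88 to 5.67) and 2.73 in KO_PBS (2.20 to 3.34), and the Müller glia list at 1.20, 1.13 and 2.31 times. The keratocyte list was at 0.964 (0.931 to 0.998), 1.04 (1.00 to 1.07) and 0.703 times (0.601 to 0.817), so the barcodes richest in Ptgds were not rich in keratocyte genes in WT or KO_PBS and were 1.04 times so in KO.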

How the data were processed

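The authors deposited raw whole-number counts of UMIs in each barcode for 3 libraries of nuclei from whole mouse corneas. The submitters' processing notes name Cell Ranger 7.0.1 and mm10. The annotation, the intron setting and the barcode filter are not given in the sources used here. Gene lists held 32285 genes (WT, KO) and 31053 (KO_PBS), and the 30406 shared Ensembl IDs, with 99.6%, 99.6% and 99.3% of the UMIs, were used. Whether KO_PBS was counted with the same annotation is not given in the sources used here, so ratios with KO_PBS may in part compare annotations, for the 8 genes too. All deposited barcodes were summed and given as CPM. Ratios used counts below 3 set to 3. The rule of size, the depth bins and the carrier definition are given with the results. Intervals are exact Poisson or, for ratios of 2 counts, from exact binomial limits, at 95%, for counting error only. No p-value is given because each group is 1 library. The members and gene lists were chosen with earlier results of these data known. Named genes were the 8 members, up to 2 genes with the highest and 2 with the lowest KO_PBS to KO ratio per list (some are not reported here), and the 10 genes most enriched in carriers without mitochondrial and ribosomal genes. Lim2 of the lens list is not under 1 shared ID and was left out. Levels are not compared between genes. The ratio and co-occurrence functions were tested on simulated data. Software was scipy 1.17.1 with numpy 2.4.6 under python 3.11.15, and matplotlib 3.10.9 for plots.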

Additional observations from a re-analysis of the deposited data

How the results depend on the processing

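No paired analysis was possible because each group has 1 library. The counts of members past the rule of size were the same within 1.5 times under called barcodes (500 or more genes, no more than 5% mitochondrial UMIs, and a UMI total no lower than 10% of the 99th percentile of the 10000 deepest), totals over each library's own gene list, totals without immunoglobulin, crystallin and mitochondrial genes, no UMI minimum and a fold of at least 1.5. At a fold of at least 1.5, 15.8% of all genes were lower in KO against WT, 50.9% higher in KO_PBS against KO and 68.6% higher in KO_PBS against WT. In the other settings just named these shares were 8.18% to 10.2%, 39.7% to 41.7% and 52.4% to 57.6%. At a fold of at least 4 the number lower in KO against WT was 2 in place of 6, beside 1.99% of all genes in place of 8.63%. After centring on the median gene, 4 in place of 8 were higher in KO_PBS than in WT, beside 29.6% of all genes in place of 57.0%, and Best1 reversed to -0.20. Of the log2 ratios, called barcodes moved 2 of 24 beyond their counting interval, the total without those gene classes moved 2, and centring moved 21 beside the reversed Best1. Leaving out carrier barcodes, added after the data were seen, moved 14 and reversed 0, and took Best1 below a ratio of 2 in KO_PBS against KO (0.87) and against WT (0.85). Co-occurrence with Ptgds changed by less than its interval with 20 depth bins and with called barcodes. With 1 bin Ttr was at 1.19 in WT and 1.58 in KO. With at least 2 UMIs of Ptgds the ratios for Rpe65, Rgr and Ttr were 1.51, 1.42 and 1.38 in WT and 3.17, 3.60 and 2.45 in KO. Thinned to 1000 UMIs they were 1.54, 1.45 and 1.34 in WT and 2.73, 3.14 and 2.25 in KO. With the added Ptgds-rich barcodes they were 5.59, 5.33 and 3.06 for WT, 27.7, 27.1 and 8.49 for KO, and 1.66, 2.19 and 0.931 for KO_PBS, where the last numbers rest on 37 barcodes and their intervals include 1. The cause of these moves was not tested. Depth limits Best1, with 130 to 189 UMIs per library.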
